A study of Mus musculus with 8 samples.

Results

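The question asked of each probe set was whether the difference between skin with and without pRb depended on p107. Expression had been measured on Affymetrix arrays in whole skin of newborn FVB mice of 4 genotypes, named in the labels pRb+/+, pRb-/-;p107+/+ (loss of pRb alone), pRb+/+;p107-/- (loss of p107 alone) and, for the double loss, pRb-/-;p107-/-. Each genotype had 2 arrays, and every array held RNA pooled from 3 animals. For each probe set the pRb difference was taken where p107 was kept (pRb-/-;p107+/+ minus pRb+/+) and where p107 was lost (pRb-/-;p107-/- minus pRb+/+;p107-/-), and the first was subtracted from the second. This quantity, the interaction, is above 0 where the pRb difference was higher in p107-/- skin than in p107+/+ skin. All 22626 probe sets that are not array controls were taken, of 22690 deposited. Every genotype and every array enters the comparison. The titles of the pRb+/+ arrays do not state p107, which is taken here as wild-type. The sources used here do not give the cells that carry the pRb deletion, the way it was made or the sex of the pups.

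Rb1 encodes pRb, the retinoblastoma protein, and Rbl1 encodes its relative p107; both are pocket proteins. They bind E2F transcription factors and keep genes of DNA replication and the cell cycle low until cyclin-dependent kinases phosphorylate them. In epidermis the pocket proteins bear on the exit of keratinocytes from the cell cycle as they differentiate, and p107 is itself the product of an E2F-regulated gene, so that loss of pRb can be partly covered by p107.

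The deposited values are z-scores. Each probe set has mean 0 and SD 1 over the 8 arrays, so a difference of 1 is 1 SD of that probe set, and no expression level or fold change can be read from it. With 2 arrays a genotype, an interaction cannot exceed 3.74 in size, nor a difference between a pair of genotypes 2.65. Because levels are missing, the presence of skin cell markers could not be checked. Differences and interactions are given in SD units, each with its standard error from the linear model (n = 2 arrays per genotype). The standard error of a pRb difference is that of the interaction printed with it, divided by the square root of 2. Gene names rest on 1 probe set for each of 12393 genes. The titles number the 2 arrays of a genotype without saying whether they held separate pools, so p-values measure the spread between these arrays, which may be technical.

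No probe set passed an adjusted p of 0.05 for the interaction (limma linear model without moderation, Benjamini-Hochberg over 22626 probe sets, percent called 0.0). The smallest adjusted p was 0.0502. At an adjusted p below 0.10, a limit chosen after the values were seen, 0.473% of probe sets qualified, 39 with an interaction above 0 (0.172%) and 68 below (0.301%). At an unadjusted p below 0.05 there were 2964 probe sets (13.1%) where 1131 would be expected without any difference, 981 of them above 0 (4.34%) and 1983 below (8.76%). With limma's moderated test 0 probe sets passed at an adjusted 0.05 and 2969 at an unadjusted 0.05. The genes below are therefore given by their values, and none is called.

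The excess of interactions below 0 moved with the scaling of the arrays. The median interaction over all genes was -0.44 on the deposited scores, -0.08 after quantile normalization of the scores and 0.03 after subtraction of array medians, which ran from -0.25 to 0.22. After quantile normalization 1476 probe sets lay above 0 (6.52%) and 1457 below (6.44%) at an unadjusted p below 0.05, and after subtraction of medians 1462 (6.46%) and 1330 (5.88%). Gene lists are accordingly set against the median of all genes.

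Where p107 was kept or lost, the pRb differences were nearly uncorrelated across probe sets. They share no arrays, and their correlation across the 22626 probe sets, which are not independent replicates, was 0.007 (Pearson) and 0.01 (Spearman). Their signs were opposite for 50.6% of all probe sets. In 2419 probe sets (10.7%) the arrays with and without pRb did not overlap in either p107 state and lay in opposite directions. Of these, 1776 were higher without pRb where p107 was kept and lower where it was lost, and 643 the other way round. These counts are from the deposited scores and were not repeated after rescaling of the arrays, which removed the excess of interactions below 0. A further 2400 probe sets (10.6%) parted in both states in the same direction. For the 1550 genes at an unadjusted p below 0.05 (12.5% of 12393), 1247 (80.5%) had pRb differences of opposite sign, against 51.2% of all genes. The arrays parted in opposite directions in 837 (54.0%), against 10.3% of all genes. Choosing genes by the interaction p favours both, so these shares do not show how common reversals are.

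**Figure D1:**
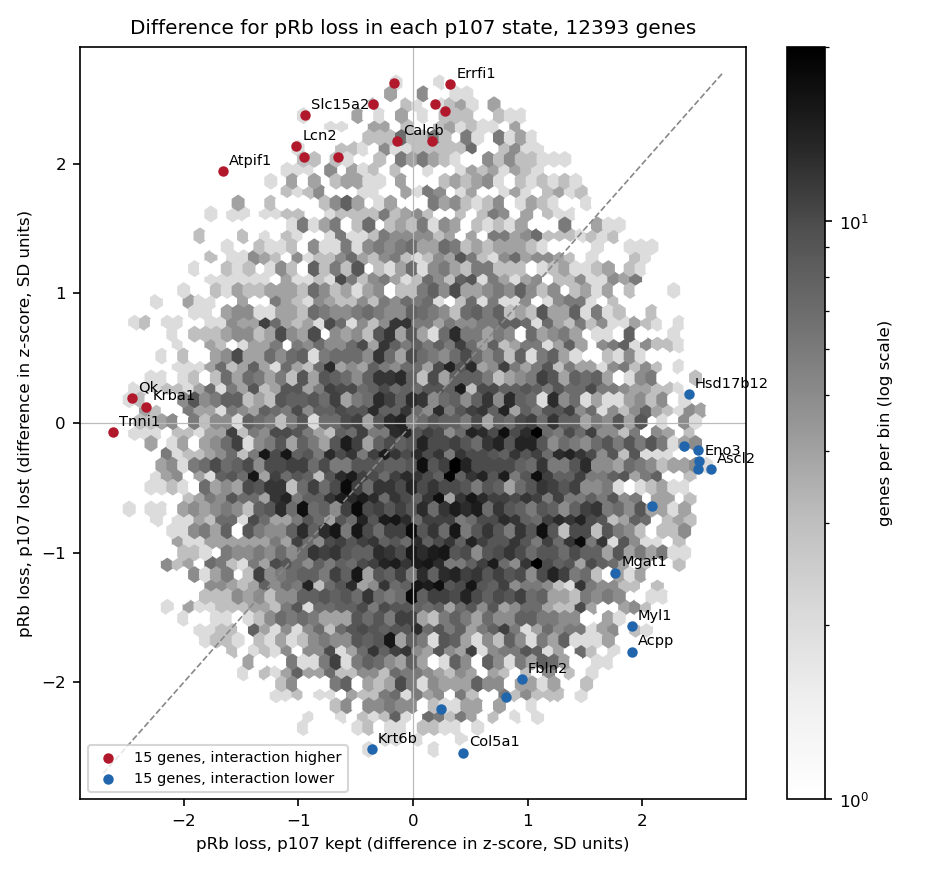
pRb difference where p107 was kept (horizontal axis) against that where p107 was lost (vertical axis), in SD units of the z-score. Grey hexagons count the 12393 genes on a log scale, and the dashed line marks equal differences. Coloured points are the 15 genes in each direction with the smallest p among those with an interaction of at least 2 SD units. The cloud is round, with no slope along the dashed line.

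Seen as parts of each probe set's total variation in the deposited scores, the interaction was no smaller than the pRb term. The sum of squares was split into pRb, p107, their interaction and the residual between duplicate arrays. The interaction held 16.4% on average, pRb 15.7% and p107 27.7%, against 14.3% for a term with 1 of the 7 degrees of freedom, and the residual held 40.2% against 57.1%. The interaction was the largest of the 3 terms for 6091 probe sets (26.9%), pRb for 5690 (25.1%) and p107 for 10845 (47.9%). The interaction held at least 80% of the sum of squares in 125 probe sets, pRb in 91 and p107 in 750. The split was not repeated after rescaling of the arrays, which moved the median interaction. The order of the interaction and pRb terms may therefore depend on the scaling.

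The genes were also sorted by shape, in patterns that were defined after the values were seen and carry no test. Each gene was given the pattern that held the largest share of its sum of squares: 1 of the 4 genotypes apart from the other 3, or a crossover in which pRb loss had opposite differences of like size. Of the 1550 genes at an unadjusted p below 0.05, the pRb-/-;p107-/- arrays stood apart in 445 (28.7%, against 25.5% of all genes). A crossover led in 361 (23.3%, against 10.0%). The crossover is the shape of the interaction itself, so choosing genes by the interaction p raises its share. The pRb+/+ arrays stood apart in 309, the pRb-/-;p107+/+ arrays in 237 and the pRb+/+;p107-/- arrays in 198. Among the 551 of these genes with an interaction above 0, the pRb-/-;p107-/- arrays stood apart in 224 (40.7%). Among the 999 below 0, a crossover was the most frequent shape, with 285 (28.5%).

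**Figure D2:**
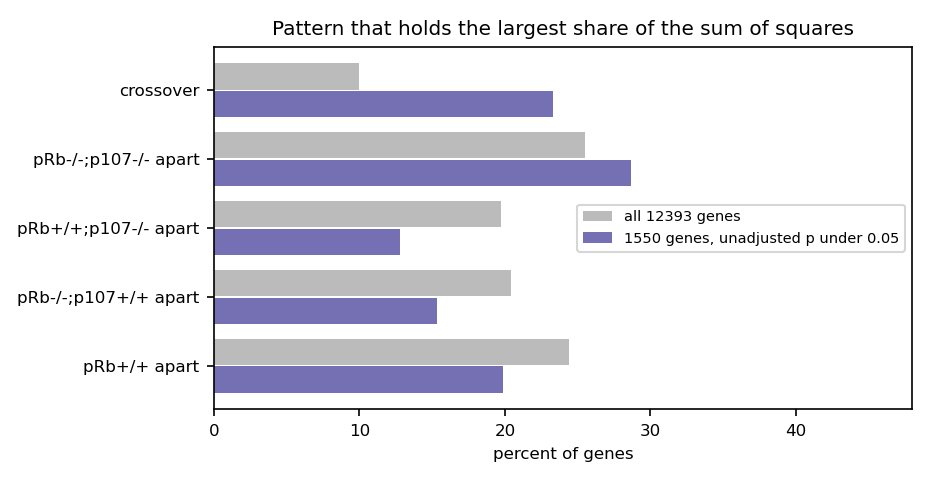
Share of genes, in percent, by the pattern with the largest share of the sum of squares. Grey bars are all 12393 genes and coloured bars the 1550 genes at an unadjusted p below 0.05 for the interaction. The crossover bar is 10.0% for all genes and 23.3% for the 1550. The crossover is the shape of the interaction, so choosing genes by the interaction p raises this bar.

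Of the pocket protein genes, Rb1 and Rbl1 had pRb differences of the same sign in both p107 states. Rb1 scored 1.21 and 1.07 on pRb+/+, -0.22 and 0.36 on pRb-/-;p107+/+, 0.02 and 0.40 on pRb+/+;p107-/- and -1.56 and -1.28 on pRb-/-;p107-/- arrays. Both arrays without pRb were below both with pRb in each p107 state, and the difference was -1.07 with p107 kept and -1.63 with p107 lost, for an interaction of -0.56 ± 0.38 (SE, limma linear model, adjusted p = 0.613). Rbl1 scored 0.08 and 0.21 on pRb+/+, 1.30 and 1.14 on pRb-/-;p107+/+, -1.51 and -1.22 on pRb+/+;p107-/- and -0.31 and 0.31 on pRb-/-;p107-/- arrays. The arrays without pRb were higher in both states, by 1.07 and 1.37 (interaction 0.29 ± 0.36, adjusted p = 0.786), and the other Rbl1 probe set had differences of -0.12 and 1.16 (interaction 1.28). The sources used here do not say where these probe sets lie relative to the deleted parts. Rbl2, the gene of the third pocket protein p130, had an interaction of 0.60 ± 1.27 (adjusted p = 0.88), with scores as far apart as -1.97 and 0.52 on the pRb-/-;p107+/+ duplicates and an interaction of 2.28 on its other probe set.

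Among the E2F genes the interaction was above 0 for the repressor E2f8 and below 0 for the repressor E2f6. E2f8 scored -0.02 and -0.74 on pRb+/+, 0.24 and -0.51 on pRb-/-;p107+/+, -1.12 and -0.74 on pRb+/+;p107-/- and 1.17 and 1.72 on pRb-/-;p107-/- arrays. Its scores were highest on both arrays that lack both proteins, so the pRb difference was 0.25 with p107 kept and 2.38 with p107 lost (interaction 2.12 ± 0.62, unadjusted p = 0.0264, adjusted p = 0.31). E2f6 was highest on the pRb-/-;p107+/+ arrays, at 1.73 and 1.00, with an interaction of -2.52 ± 0.81 (adjusted p = 0.343). E2f1, an activator of S phase entry, was lowest on the pRb+/+ arrays, at -1.64 and -1.29, and its interaction of -1.51 ± 0.68 did not pass (adjusted p = 0.456), with the other probe set at 0.65. Of 17 listed pocket protein, E2F and partner genes 12 were measured, and E2f8 and E2f6 were the 1 above 0 and the 1 below at an unadjusted p below 0.05, counts that ran from 0 to 2 and from 0 to 1 with single arrays left out. Of all genes, 4.45% lay above 0 and 8.06% below at that limit, so 1 of 12 each way is no clear excess. E2f3, E2f4 and E2f5 had interactions of -1.60 ± 1.66, 0.04 ± 0.65 and -1.23 ± 1.58 (adjusted p = 0.744, 0.985 and 0.796). The other E2f5 probe set had 2.4.

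For genes of the replicative helicase, which unwinds DNA at origins, the median pRb difference was above 0 in both p107 states. Of 24 listed genes of the MCM helicase and origin licensing, 21 were measured. Their median pRb difference was 0.73 with p107 kept and 1.37 with p107 lost, where the medians of all genes were 0.1 and -0.34. The difference was above 0 for 14 and for 17 of the 21. The median interaction was 0.49 and ran from 0.1 to 0.84 with single arrays left out. At an unadjusted p below 0.05, 1 gene was above 0 and 0 below, against 4.45% and 8.06% of all genes. The count above 0 was 4 after subtraction of array medians, 3 without pRb+/+ replicate 1 and 0 without pRb+/+ replicate 2, pRb-/-;p107+/+ replicate 2 or either pRb-/-;p107-/- array. On the single arrays the list's median score was -1.06 and -0.03 for pRb+/+, -0.2 and -0.31 for pRb-/-;p107+/+, -0.15 and -0.22 for pRb+/+;p107-/-, and 1.23 and 1.06 for pRb-/-;p107-/-. Both pRb-/-;p107-/- arrays were above the other 6, and the pRb+/+ arrays lay on either side of both single losses.

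The promoters of 2 helicase and licensing genes are printed because E2F motifs, through which pocket proteins act, were found in them. The E2F motifs TTTCCCGC and TTTGGCGC were searched on both strands in RefSeq windows of 300 bases, from 250 before to 50 after each gene start (build GRCm38.p6). A motif was found in 514 of 32851 windows (1.6%) and for 294 of the 9887 array genes with a window (3.0%), against 7 of 17 helicase and licensing genes (41.2%) and 6 of 27 genes of DNA synthesis (22.2%). Among genes of G2 phase and mitosis it was 1 of 39 (2.6%). Among the genes with the smallest p and an interaction of at least 2 SD units, it was 0 of 13 above 0 and 0 of 11 below 0. A match describes the letters in the window and is not evidence of binding. Mcm6, a subunit of the helicase, has 2 motifs (chr1:128359656-128359955, minus strand), and Cdc6, which loads the helicase at origins, has 1 (chr11:98907901-98908200, plus strand). Capitals mark the motif, and each sequence runs 5′ to 3′ on the gene's strand.
Mcm6: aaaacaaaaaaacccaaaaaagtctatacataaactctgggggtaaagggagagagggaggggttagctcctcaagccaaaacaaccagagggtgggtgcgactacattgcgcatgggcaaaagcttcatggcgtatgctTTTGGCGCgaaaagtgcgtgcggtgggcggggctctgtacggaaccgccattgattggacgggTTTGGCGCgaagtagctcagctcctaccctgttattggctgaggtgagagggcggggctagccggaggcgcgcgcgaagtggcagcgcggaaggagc
Cdc6: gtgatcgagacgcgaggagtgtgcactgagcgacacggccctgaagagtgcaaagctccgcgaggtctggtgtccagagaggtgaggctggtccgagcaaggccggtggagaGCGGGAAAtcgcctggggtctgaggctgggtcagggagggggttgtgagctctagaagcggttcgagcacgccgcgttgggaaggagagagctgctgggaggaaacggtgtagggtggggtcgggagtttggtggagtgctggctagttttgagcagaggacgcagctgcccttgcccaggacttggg

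On the probe sets that stand for them, both genes were higher without pRb in each p107 state. Mcm6 and Mcm5 were chosen after their values were seen. Mcm6 scored -1.35 and -0.93 on pRb+/+, -0.16 and 0.16 on pRb-/-;p107+/+, -0.12 and -0.36 on pRb+/+;p107-/- and 1.75 and 1.02 on pRb-/-;p107-/- arrays. The arrays parted in both states, with differences of 1.14 and 1.63 and an interaction of 0.49 ± 0.47 (adjusted p = 0.721), while its other probe set had an interaction of 1.69. Mcm5, another subunit, had nearly the same difference in both states, 1.39 and 1.46, with an interaction of 0.07 ± 0.29. Cdc6 differed by 0.57 with p107 kept and 1.46 with p107 lost (interaction 0.89 ± 0.35, adjusted p = 0.413). Its scores were -0.96 and -1.07 on pRb+/+, -0.59 and -0.31 on pRb-/-;p107+/+, -0.25 and 0.26 on pRb+/+;p107-/- and 1.27 and 1.66 on pRb-/-;p107-/- arrays, in that order from lowest to highest with no overlap. Cdc45, a partner of the helicase, had an interaction of 1.62 ± 0.80 (adjusted p = 0.496). Gmnn, the gene of geminin, which blocks relicensing, was the member above 0 at an unadjusted p below 0.05. It differed by -0.67 with p107 kept and by 2.28 with p107 lost (interaction 2.95 ± 0.83, unadjusted p = 0.0235, adjusted p = 0.295).

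For DNA synthesis genes, too, the median pRb difference was above 0 in both p107 states. For 30 of 33 listed genes the median pRb difference was 0.79 with p107 kept and 1.21 with p107 lost, and 26 and 25 differences were above 0. The median interaction was 0.17, from 0.06 to 0.61 with single arrays left out. Among all genes, 4.45% lay above 0 and 8.06% below at an unadjusted p below 0.05. At an unadjusted p below 0.05, 3 genes lay above 0 and 0 below, and the count above 0 was 7 after subtraction of array medians and 5 without pRb+/+ replicate 1. Without pRb-/-;p107+/+ replicate 2 there were 2 below 0. Prim1, the catalytic subunit of primase, scored -1.11 and -1.13 on pRb+/+, 0.32 and 0.11 on pRb-/-;p107+/+, -0.39 and -0.58 on pRb+/+;p107-/- and 1.42 and 1.36 on pRb-/-;p107-/- arrays. No genotypes overlapped, and it differed by 1.34 and 1.88 (interaction 0.54 ± 0.15, adjusted p = 0.29). Its other probe set differed by 0.36 and 2.27, for an interaction of 1.91 ± 0.49. For Chaf1b, a histone chaperone subunit at the fork, arrays with and without pRb overlapped where p107 was kept and parted where it was lost, with 0.31 against 2.25 (interaction 1.94 ± 0.46, adjusted p = 0.239). Rpa2, a subunit of the single-strand binding protein, had opposite differences of -0.69 and 1.68 (interaction 2.37 ± 0.47, adjusted p = 0.205), while another Rpa2 probe set had an interaction of -1.42. The clamp loader gene Rfc3 had its difference where p107 was kept, 1.82 against 0.12.

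Genes of G2 phase and mitosis had the larger median pRb difference where p107 was kept, as had all genes. For 47 of 49 listed genes the median difference was 0.93 with p107 kept and 0.22 with p107 lost, and 35 and 27 were above 0. The list's median scores were -0.52 and -0.33 on pRb+/+ arrays, 0.6 and 0.48 on pRb-/-;p107+/+ arrays, -0.03 and -0.06 on pRb+/+;p107-/- arrays and -0.03 and -0.07 on pRb-/-;p107-/- arrays, so the last pair of genotypes overlapped. The median interaction of -0.76 lay 0.32 below that of all genes, with 2 members above 0 and 3 below at an unadjusted p below 0.05, which is no more than the 4.45% and 8.06% of all genes. With single arrays left out these counts ran from 0 to 2 and from 2 to 5. Cdc25c, the phosphatase that activates CDK1, was a crossover, with 2.35 where p107 was kept and -0.78 where it was lost (interaction -3.13 ± 0.65, adjusted p = 0.217). Ncapd2, a condensin subunit, differed by 1.93 and 0.24 (interaction -1.69 ± 0.32, adjusted p = 0.199). Plk4, the kinase of centriole duplication, had an interaction of -2.69 ± 0.83, but another of its probe sets had 2.0. Cks2, a small CDK subunit, was above 0 at 1.91 ± 0.53, with another probe set at -0.68.

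Among the G1 regulators the interaction was above 0 for the E-type cyclins and below 0 for the D-type cyclins. Ccne1 (cyclin E1, an E2F target that drives S phase entry) scored -0.96 and -0.56 on pRb+/+, 0.26 and -0.04 on pRb-/-;p107+/+, -0.86 and -0.74 on pRb+/+;p107-/- and 1.78 and 1.12 on pRb-/-;p107-/- arrays. It was higher without pRb in both states and more so where p107 was lost, 0.87 against 2.25 (interaction 1.38 ± 0.42, unadjusted p = 0.0294, adjusted p = 0.321). Ccne2 had differences of 0.38 and 2.32 (interaction 1.94 ± 0.63, adjusted p = 0.345). Ccnd2 (cyclin D2) was lowest on the arrays without both proteins, at -1.06 and -1.78, with an interaction of -1.77 ± 0.50 (adjusted p = 0.296). Its 6 other probe sets also lay below 0, from -0.22 to -2.94. Ccnd3 (cyclin D3) had -2.59 ± 0.88 (adjusted p = 0.357), and the Ccnd1 (cyclin D1) probe sets had -0.62, -0.11 and -1.57. The median of all genes was also below 0, at -0.44. The Ccnd2 probe set at -0.22 and the Ccnd1 probe set at -0.11 lay above that median. Over 16 genes of G1 cyclins, their kinases and CDK inhibitors, 3 lay above 0 and 2 below at an unadjusted p below 0.05 (from 1 to 2 and from 0 to 2 with single arrays left out), with a median of -0.7. Of all genes, 4.45% lay above 0 and 8.06% below at that limit. The list's median less the median of all genes was -0.26, and 0.16 without pRb+/+;p107-/- replicate 2.

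Cdkn1a, the CDK inhibitor p21 and a p53 target, was among the 3 above 0. It scored -0.09 and -0.03 on pRb+/+, -0.54 and -0.60 on pRb-/-;p107+/+, -0.70 and -1.01 on pRb+/+;p107-/- and 1.94 and 1.03 on pRb-/-;p107-/- arrays. The score was lower without pRb where p107 was kept and higher where it was lost, without overlap in either state (-0.51 and 2.34, interaction 2.85 ± 0.49, adjusted p = 0.183). The other Cdkn1a probe set was higher without pRb in both states, by 1.30 and 1.83, with an interaction of 0.53. In 21 of 24 listed p53 targets the median interaction was 0.66. At an unadjusted p below 0.05, 5 lay above 0 and 1 below, against 4.45% and 8.06% of all genes. Trp53inp1, which promotes the p53 stress response, had 0.24 and 2.60 (interaction 2.35 ± 0.30, adjusted p = 0.128), and its other probe set 1.15 and 1.58 (interaction 0.43 ± 0.64). Ddit4, an inhibitor of mTORC1 signalling, had -0.28 and 1.40 (interaction 1.67 ± 0.19, adjusted p = 0.122). Ccng1 (cyclin G1, a p53 target as well) went the other way: 2.35 where p107 was kept and -0.70 where it was lost (interaction -3.04 ± 0.37, adjusted p = 0.127), and both other probe sets, at -2.23 and -2.93, had the same sign.

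The immediate early genes, transcription factors and their relatives that respond within minutes to growth signals and stress, had the highest median interaction of the lists apart from the sex-linked genes. Of 32 listed AP-1 and immediate early genes, 30 were measured and 23 lay above 0. The median interaction was 1.83, from a median pRb difference of 0.0 with p107 kept and 1.47 with p107 lost. At an unadjusted p below 0.05, 10 lay above 0 and 0 below, against 4.45% and 8.06% of all genes, and with single arrays left out the count above 0 ran from 7 to 11. The list's median score was -0.33 and 0.2 on pRb+/+ arrays, -0.11 and -0.03 on pRb-/-;p107+/+ arrays, -0.72 and -0.65 on pRb+/+;p107-/- arrays and 0.69 and 0.77 on pRb-/-;p107-/- arrays. The lowest scores were thus on the p107-/- arrays that keep pRb and the highest on those that lack both.

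Egr1, a zinc finger immediate early factor, shows this shape. Its scores were 0.04 and 0.42 on pRb+/+, 0.01 and 0.07 on pRb-/-;p107+/+, -1.46 and -1.40 on pRb+/+;p107-/- and 1.33 and 0.99 on pRb-/-;p107-/- arrays. The pRb difference was -0.19 with p107 kept, where arrays overlapped, and 2.59 with p107 lost (interaction 2.77 ± 0.26, adjusted p = 0.0991). Klf10, a TGF-beta induced zinc finger gene, had differences of -0.97 and 2.27, with no overlap in either state (interaction 3.24 ± 0.29, adjusted p = 0.0925). Ier3, a stress-induced survival gene, scored 1.69 and 1.52 on the arrays without both proteins and from -0.73 to -0.40 on the other 6 (interaction 1.80 ± 0.11, adjusted p = 0.0765). The exception with the smallest p was Egr3, another early growth response factor, at -1.46 ± 0.60 (adjusted p = 0.426).

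The EGF receptor family of ligands and feedback genes, which drives keratinocyte growth, had 6 of 17 measured genes above 0 and 0 below at an unadjusted p below 0.05, against 4.45% and 8.06% of all genes. Without pRb-/-;p107+/+ replicate 2 there were 3 below. The median interaction was 0.68 and ran from 0.44 to 1.11 with single arrays left out. Whatever their p, 6 of the 17 lay below 0, among them Spry4, a feedback inhibitor of receptor signalling, at -2.77 ± 1.17 (adjusted p = 0.438). Errfi1, which encodes a feedback inhibitor of the EGF receptor, scored -0.22 and -0.26 on pRb+/+, 0.17 and 0.01 on pRb-/-;p107+/+, -1.20 and -1.27 on pRb+/+;p107-/- and 1.38 and 1.38 on pRb-/-;p107-/- arrays. All 4 genotypes were separate, and the pRb difference was 0.33 with p107 kept and 2.61 with p107 lost (interaction 2.29 ± 0.09, adjusted p = 0.0765), with an interaction of 0.97 on the other Errfi1 probe set. Ereg, the ligand epiregulin, scored 1.55 and 1.55 on the arrays without both proteins and at most 0.001 elsewhere (interaction 1.89 ± 0.16, adjusted p = 0.0881). Epgn, the ligand epigen, scored 1.62 and 1.56 there and below 0 on the other 6 arrays (interaction 2.42 ± 0.21, adjusted p = 0.0906).

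**Figure D3:**
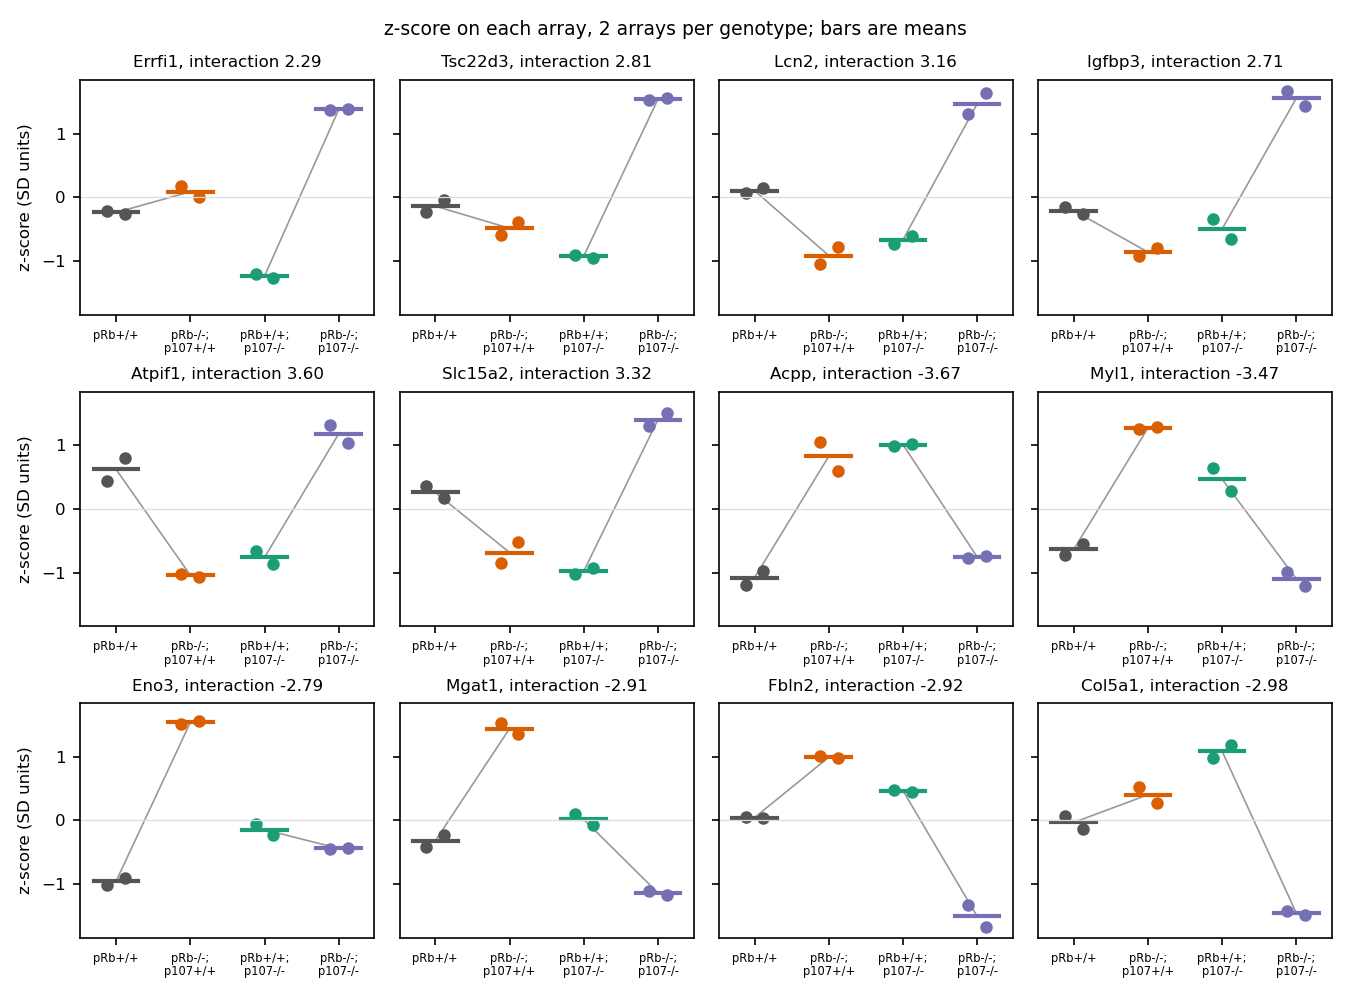
z-score on each array (vertical axis, SD units) for 12 genes, by genotype (horizontal axis). Points are arrays, bars are means of 2, and grey lines join the genotypes that differ in pRb within a p107 state. Errfi1, Tsc22d3 and Igfbp3 are highest on the arrays without both proteins, Atpif1 and Slc15a2 cross over in one direction, and Acpp and Myl1 cross over in the other.

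Stress keratinocyte and differentiation genes of the epidermis lay above the median of all genes. For 33 of 40 listed genes of hyperproliferation and stress, such as small proline-rich proteins, calgranulins and interleukin 1 family members, the median interaction was 0.97. At an unadjusted p below 0.05, 11 lay above 0 and 2 below, against 4.45% and 8.06% of all genes. The list's median score was 1.26 and 1.16 on the pRb-/-;p107-/- arrays and from -0.75 to 0.02 on the other 6. Among 18 of 23 spinous layer genes the median was 1.06 (6 above 0, 1 below), with median scores of 1.23 and 1.24 on the pRb-/-;p107-/- arrays and from -0.8 to 0.0 elsewhere. Among 28 of 37 genes of the granular layer and cornified envelope it was 0.55 (5 above 0, 2 below), and the count above 0 was 10 after subtraction of array medians and 3 without pRb-/-;p107-/- replicate 2. The median pRb difference was above 0 in both p107 states for all 3 lists: 0.47 and 1.04, 0.37 and 1.27, and 0.23 and 1.0.

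AP-1 sites are known in promoters of stress keratinocyte genes, and the search found its motif, TGANTCA on both strands, in 13 of 24 of these promoters (54.2%), against 2565 of 32851 windows (7.8%) and 7.7% of array genes. No promoter of the 23 AP-1 and immediate early genes with a window held it. The cyclic AMP response motif TGACGTCA was held by 2 of these 23, against 3.0% of array genes and 1.8% of windows. Promoters of a pair of Sprr2 genes, which encode cross-linked proteins of the cornified envelope, are printed because their probe sets are among those with the smallest errors. Sprr2d lies at chr3:92338890-92339189 and Sprr2h at chr3:92385435-92385734, both on the plus strand of GRCm38.p6, and capitals mark the motif.
Sprr2d: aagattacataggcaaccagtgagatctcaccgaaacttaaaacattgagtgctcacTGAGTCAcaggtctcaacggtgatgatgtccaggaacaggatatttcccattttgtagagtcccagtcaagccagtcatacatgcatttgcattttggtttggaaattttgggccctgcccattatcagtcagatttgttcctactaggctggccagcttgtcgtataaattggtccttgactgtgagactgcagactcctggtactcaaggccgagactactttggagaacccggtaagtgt
Sprr2h: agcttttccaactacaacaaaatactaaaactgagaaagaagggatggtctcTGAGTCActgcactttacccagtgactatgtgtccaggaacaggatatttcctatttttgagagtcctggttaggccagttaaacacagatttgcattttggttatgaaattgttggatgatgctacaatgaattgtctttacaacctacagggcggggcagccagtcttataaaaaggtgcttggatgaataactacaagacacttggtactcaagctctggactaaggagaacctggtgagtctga

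Both genes were higher without pRb in each p107 state, and more so where p107 was lost. Sprr2d scored -0.88 and -0.99 on pRb+/+, -0.15 and -0.09 on pRb-/-;p107+/+, -0.54 and -0.43 on pRb+/+;p107-/- and 1.57 and 1.50 on pRb-/-;p107-/- arrays. It differed by 0.82 with p107 kept and 2.02 with p107 lost (interaction 1.20 ± 0.09, adjusted p = 0.0794). Sprr2h, chosen after its values were seen, differed by 0.50 and 2.23 (interaction 1.73 ± 0.19, adjusted p = 0.114). The Sprr2 genes are near-identical neighbours, so their probe sets may share signal, and the Sprr2h probe set is of the kind that can match several genes.

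Other members of these lists were also highest on the arrays without both proteins. Krt77, a suprabasal keratin, differed by 0.87 and 2.15 (interaction 1.29 ± 0.12, adjusted p = 0.0991). Ovol1, a transcription factor of epidermal differentiation, had 0.78 and 2.37 (interaction 1.59 ± 0.21), and Calm4, a calmodulin-like protein of the epidermis, 0.56 and 2.02 (interaction 1.47 ± 0.24; adjusted p = 0.136 and 0.173). Asprv1, the protease that processes profilaggrin, had 0.58 and 1.66 (interaction 1.08 ± 0.21, adjusted p = 0.2).

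Some genes of the same lists had interactions below 0. Krt6b, a keratin of wounded epidermis, scored -0.18 and 0.04 on pRb+/+, -0.37 and -0.49 on pRb-/-;p107+/+, 1.52 and 1.50 on pRb+/+;p107-/- and -0.97 and -1.05 on pRb-/-;p107-/- arrays. It stood apart on the p107-/- arrays that keep pRb (interaction -2.16 ± 0.14, adjusted p = 0.0765). Lce1h, of the late cornified envelope cluster, was lowest on the arrays without both proteins, at -1.43 and -1.66 (interaction -1.87 ± 0.36, adjusted p = 0.2), on a probe set that can match related genes, as in other keratin and envelope families. Dsp, the gene of desmoplakin, had -1.90 ± 0.48, but its other probe sets, at 2.5 and 3.19, had the opposite sign.

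Hair shaft genes were lower without pRb, with the larger median difference where p107 was kept. For 32 of 42 listed hair keratins and keratin-associated proteins the median pRb difference was -0.96 with p107 kept and -0.54 with p107 lost, and it was below 0 for all but 1 and 7 of them. The list's median score was 1.25 and 1.33 on pRb+/+ arrays, 0.33 and 0.3 on pRb-/-;p107+/+ arrays, -0.49 and -0.58 on pRb+/+;p107-/- arrays and -1.04 and -1.02 on pRb-/-;p107-/- arrays, a step down with each loss and no overlap. The median interaction was 0.48, with 6 above 0 and 1 below at an unadjusted p below 0.05, against 4.45% and 8.06% of all genes. The count above 0 was 15 after subtraction of array medians, with 0 below, and 11 without pRb-/-;p107+/+ replicate 1. Krtap19-4 differed by -1.46 and -0.46 (interaction 0.99 ± 0.11, adjusted p = 0.114) and Krtap19-2 by -1.46 and -0.23 (interaction 1.22 ± 0.15, adjusted p = 0.128). Krtap13-1 had differences of opposite sign, -0.86 and 0.37 (interaction 1.23 ± 0.13, adjusted p = 0.113). Krtap6-5 was lower without pRb by like amounts, -0.79 and -1.03, and its interaction of -0.23 ± 0.07 was above 0 after either rescaling of the arrays, at 0.07 and 0.23.

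**Figure D4:**
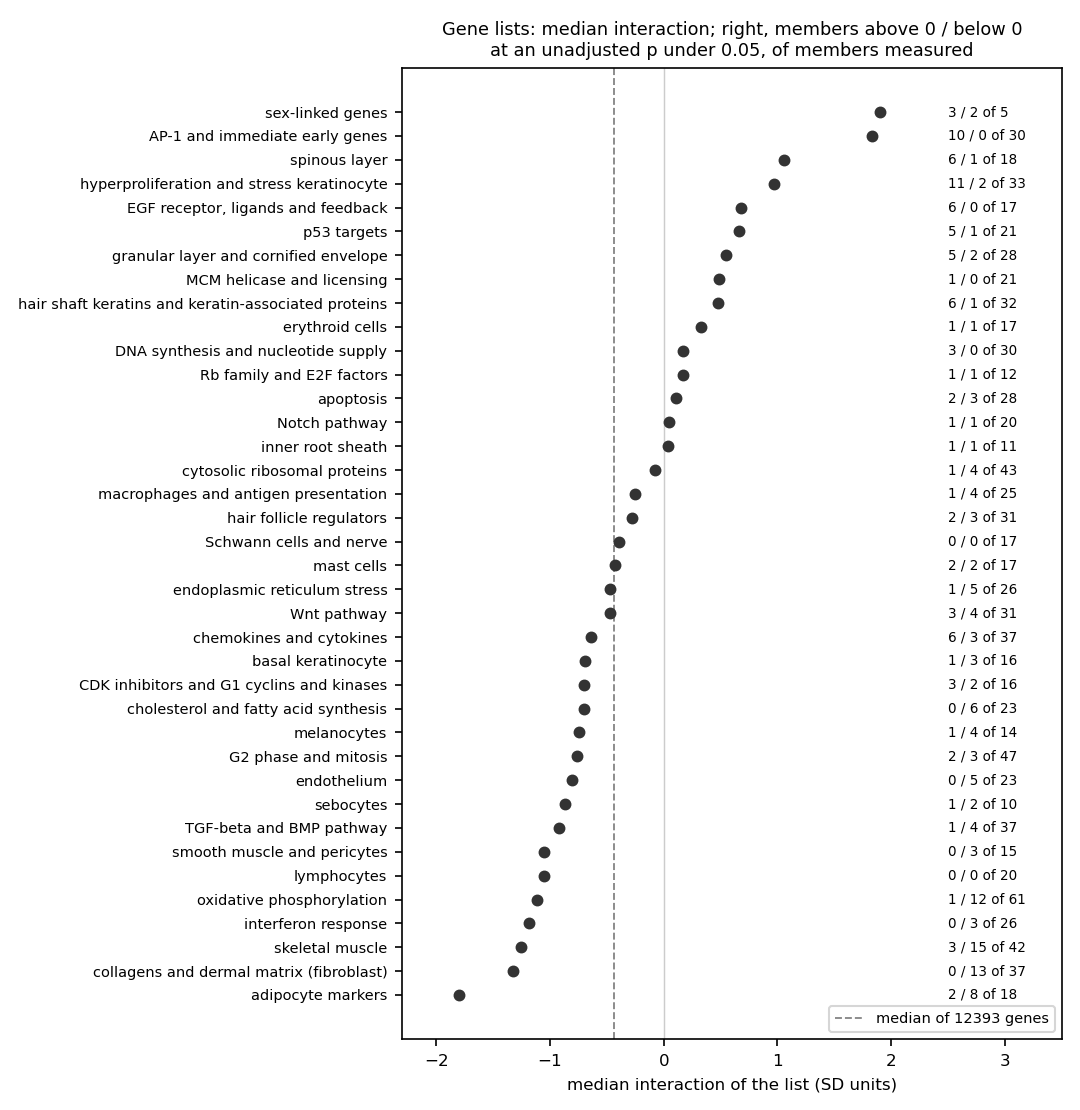
Median interaction of each of 38 gene lists (horizontal axis, SD units), with the number of members above and below 0 at an unadjusted p below 0.05. The dashed line is the median of all 12393 genes, -0.44. AP-1 and immediate early genes lie at 1.83 and adipocyte markers at -1.8.

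The lowest median interaction was that of adipocyte markers, which were higher without pRb where p107 was kept and lower where it was lost. Of 23 listed genes 18 were measured. Their median pRb difference was 1.08 with p107 kept and -1.09 with p107 lost, for a median interaction of -1.8, and 9 of the 18 parted in opposite directions, against 10.3% of all genes. At an unadjusted p below 0.05, 8 lay below 0 and 2 above, and of the latter 0 or 1 with any single array left out. Of all genes, 8.06% lay below 0 and 4.45% above at that limit. The list's median score was -0.5 and -0.19 on pRb+/+ arrays and 1.06 and 0.91 on pRb-/-;p107+/+ arrays. It was 0.16 and 0.39 on pRb+/+;p107-/- arrays and -0.65 and -1.01 on pRb-/-;p107-/- arrays. In these bulk samples, fewer cells of a type and less RNA per cell cannot be told apart.

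Adipoq, the adipocyte hormone adiponectin, scored -0.20 and 0.04 on pRb+/+, 0.93 and 1.30 on pRb-/-;p107+/+, 0.41 and 0.36 on pRb+/+;p107-/- and -1.29 and -1.55 on pRb-/-;p107-/- arrays. Its pRb difference was 1.20 with p107 kept and -1.81 with p107 lost (interaction -3.01 ± 0.26, adjusted p = 0.0883). Lipe, the hormone-sensitive lipase, was a clean crossover, 2.11 and -1.47 (interaction -3.58 ± 0.35, adjusted p = 0.104). Gpd1, which makes the glycerol backbone of triglycerides, had 2.08 and -1.30 (interaction -3.38 ± 0.45, adjusted p = 0.133), with 1 of 3 other probe sets of opposite sign. The members above 0 at an unadjusted p below 0.05 were Cebpa, a transcription factor of adipocytes that keratinocytes also express, and Ucp1, the brown fat uncoupling protein. Their interactions were 1.49 ± 0.51 and 1.24 ± 0.41 (adjusted p = 0.362 and 0.35).

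Genes of the dermal matrix were low on the arrays that lack both proteins. For 37 of 38 listed collagen and matrix genes the median pRb difference was -0.27 with p107 kept and -1.66 with p107 lost, and only 2 were above 0 in the latter. The median interaction was -1.32, with 0 above 0 and 13 below at an unadjusted p below 0.05, a count that ran from 7 to 14 with single arrays left out and was lowest without pRb+/+ replicate 1, pRb+/+;p107-/- replicate 1 or pRb-/-;p107-/- replicate 2. Of all genes, 4.45% lay above 0 and 8.06% below at that limit. Col5a1, a fibril-regulating collagen, scored 0.06 and -0.13 on pRb+/+ and 0.53 and 0.28 on pRb-/-;p107+/+ arrays. It scored 0.99 and 1.18 on pRb+/+;p107-/- and -1.42 and -1.49 on pRb-/-;p107-/- arrays. It differed by 0.43 and -2.54 (interaction -2.98 ± 0.19, adjusted p = 0.0765), but its other probe sets gave 0.03 and -1.51. Fbln2, an elastic fibre protein, differed by 0.95 and -1.97 (interaction -2.92 ± 0.17, adjusted p = 0.0765), and Lum, a collagen-binding proteoglycan, by 0.78 and -2.42 (interaction -3.20 ± 0.44, adjusted p = 0.14). Lox, the collagen cross-linking oxidase, had 1.79 ± 0.73 (adjusted p = 0.424), with another probe set at -3.05.

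Most skeletal muscle genes, from the muscle sheet under newborn skin, had interactions below 0 (30 of 42). For 42 of 43 listed genes the median pRb difference was 1.35 with p107 kept and -0.22 with p107 lost (median interaction -1.25). At an unadjusted p below 0.05, 15 lay below 0 and 3 above, against 8.06% and 4.45% of all genes. Eno3, the muscle enolase, scored -1.01 and -0.90 on pRb+/+, 1.51 and 1.57 on pRb-/-;p107+/+, -0.06 and -0.23 on pRb+/+;p107-/- and -0.45 and -0.43 on pRb-/-;p107-/- arrays. The difference lay almost wholly where p107 was kept, 2.49 against -0.29 (interaction -2.79 ± 0.11, adjusted p = 0.0765). Myl1, a fast-fibre myosin light chain, crossed over with 1.91 and -1.56 (interaction -3.47 ± 0.24, adjusted p = 0.0766), and Pgam2, a muscle glycolytic enzyme, with 1.30 and -1.30 (interaction -2.60 ± 0.22, adjusted p = 0.0881). The 3 members above 0 at that limit were the slow-fibre troponin genes Tnni1 and Tnnc1 and the embryonic myosin heavy chain Myh3. Their interactions were 2.55 ± 0.20, 2.07 ± 0.47 and 2.98 ± 0.50 (adjusted p = 0.0817, 0.233 and 0.178). All 3 were lowest on the pRb-/-;p107+/+ arrays, where Eno3, Myl1 and Pgam2 were highest.

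Oxidative phosphorylation genes were low on the arrays without both proteins and alike on the other 6. For 61 of 64 listed genes the median pRb difference was 0.11 with p107 kept and -1.24 with p107 lost (median interaction -1.11). At an unadjusted p below 0.05, 1 lay above 0 and 12 below, against 4.45% and 8.06% of all genes. The count below 0 was 4 without pRb+/+ replicate 1 or pRb+/+;p107-/- replicate 1, and 7 after subtraction of array medians. The list's median score was -0.59 and -1.31 on the pRb-/-;p107-/- arrays and from 0.2 to 0.42 on the other 6. Ndufc1, of respiratory complex I, differed by 0.58 and -1.98 (interaction -2.56 ± 0.38, adjusted p = 0.15), with its other probe set at -0.72. Sdhd, of complex II, had an interaction of -2.57 ± 0.34, with another probe set at 1.1, and Ndufa4 lay above 0 at 1.75 ± 0.42 (adjusted p = 0.134 and 0.24).

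**Figure D5:**
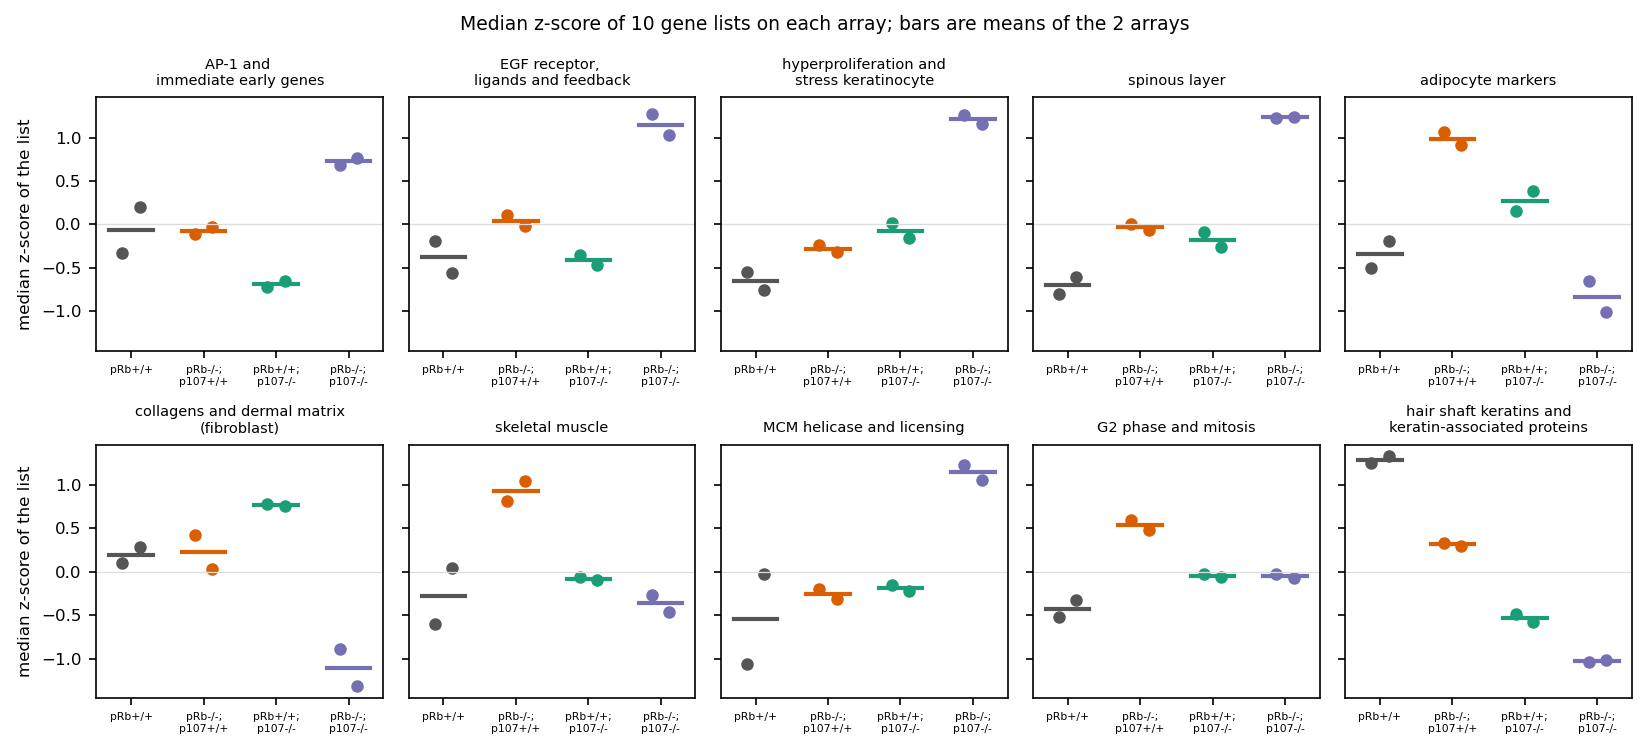
Median z-score of 10 gene lists on each array (vertical axis, SD units) by genotype (horizontal axis). Points are arrays and bars are means of 2 arrays. AP-1, EGF, stress, spinous and MCM lists are highest on the pRb-/-;p107-/- arrays, dermal matrix is lowest there, adipocyte, muscle and mitosis lists are highest on the pRb-/-;p107+/+ arrays, and hair shaft genes step down from left to right.

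The 15 genes above 0 with the smallest p among those of at least 2 SD units had interactions from 2.01 to 3.6 and adjusted p from 0.0502 to 0.0881. The pRb-/-;p107-/- arrays stood apart in 10 of them. Calcb, a calcitonin gene-related peptide, had the smallest p of all probe sets: it scored -0.48 and -0.44 on pRb+/+, -0.60 and -0.61 on pRb-/-;p107+/+, -0.53 and -0.58 on pRb+/+;p107-/- and 1.67 and 1.57 on pRb-/-;p107-/- arrays. The first 3 genotypes lay within -0.61 and -0.44, and the pRb difference was -0.14 with p107 kept and 2.17 with p107 lost (interaction 2.32 ± 0.06, adjusted p = 0.0502). Rdh9, a retinol dehydrogenase, scored 1.59 and 1.57 on the arrays without both proteins (interaction 2.12 ± 0.06, adjusted p = 0.0502), on a probe set that can match relatives. Tsc22d3, the glucocorticoid-induced leucine zipper, differed by -0.35 and 2.46 (interaction 2.81 ± 0.14, adjusted p = 0.0765), and both other probe sets were above 0, at 1.82 and 1.36. Cited2, a coregulator that binds CBP and p300, had 2.01 ± 0.17, with its other probe set at 2.09. The remaining genes apart in this way were Slurp1, a secreted protein of the epidermis, at 2.79 ± 0.17, the iron-scavenging lipocalin Lcn2 at 3.16 ± 0.22, the IGF carrier Igfbp3 at 2.71 ± 0.21, the serpin Serpinb11 at 2.27 ± 0.19 and the pregnancy-specific glycoprotein Psg18 at 3.00 ± 0.23, where the probe set can match relatives, besides Errfi1.

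The other 5 genes above 0 had other shapes. Atpif1, the inhibitor of mitochondrial ATP synthase, scored 0.45 and 0.80 on pRb+/+, -1.02 and -1.06 on pRb-/-;p107+/+, -0.65 and -0.87 on pRb+/+;p107-/- and 1.32 and 1.04 on pRb-/-;p107-/- arrays. Each single loss was low and the double loss high, with differences of -1.66 and 1.94 (interaction 3.60 ± 0.25, adjusted p = 0.0766). The peptide transporter gene Slc15a2 crossed over in the same way (interaction 3.32 ± 0.22, adjusted p = 0.0766). For both, the other probe set of the gene was below 0, at -0.51 for Atpif1 and -0.63 for Slc15a2. Qk, an RNA-binding protein gene, was high on the pRb+/+ arrays alone, at 1.50 and 1.62 (interaction 2.65 ± 0.17), with other probe sets from -2.35 to 1.78. Krba1 and Tnni1 were low on the pRb-/-;p107+/+ arrays alone, at -1.68 and -1.51 and -1.35 and -1.45.

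The 15 genes below 0 had interactions from -2.16 to -3.67 and adjusted p of 0.0765 or 0.0766. In 13 of them the arrays parted in opposite directions in the p107 states, which choosing genes by the interaction favours. Acpp, an acid phosphatase, was nearly a pure crossover: it scored -1.19 and -0.97 on pRb+/+, 1.06 and 0.59 on pRb-/-;p107+/+, 0.99 and 1.02 on pRb+/+;p107-/- and -0.77 and -0.74 on pRb-/-;p107-/- arrays. Each single loss was high, and pRb+/+ and the double loss were low (1.90 and -1.76, interaction -3.67 ± 0.26, adjusted p = 0.0766), with 96.1% of the sum of squares in the interaction. Its other probe set had an interaction of -0.4. Mgat1, the enzyme that opens the way to complex N-glycans, was high on the pRb-/-;p107+/+ arrays and low on the double-loss arrays (1.76 and -1.15, interaction -2.91 ± 0.16). Tmem144, Mobp (a myelin protein gene) and Ntn1 (the guidance cue netrin 1) were high on the pRb-/-;p107+/+ arrays alone, at 1.47 and 1.59, 1.49 and 1.65 and 1.43 and 1.65. Mobp had another probe set above 0, at 1.42, and so had Ntn1, at 1.89, while a further Tmem144 probe set had -0.55.

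Desmocollin 3, an adhesion protein of basal and spinous keratinocytes encoded by Dsc3, was low on the pRb+/+ arrays alone, with scores of -1.62 and -1.57 against 0.24 to 0.80 on the other 6 (interaction -2.54 ± 0.12, adjusted p = 0.0765). Hsd17b12, of fatty acid elongation, and Ascl2, a transcription factor gene, were low on the same arrays, at -1.63 and -1.53 and -1.55 and -1.22. The 2 other Ascl2 probe sets gave 1.18 and -0.26, and the other Hsd17b12 probe set -1.22. Lrp4, a co-receptor of agrin, and Timm22, of mitochondrial protein import, were low where both proteins were lost, at -1.55 and -1.51 and -1.53 and -1.68, and the other Timm22 probe set had an interaction of -0.77. Of the 15 genes above 0, 6 had other probe sets, and of the 15 below 0, 8 had them. At least 1 of these had the opposite sign in 3 and in 4 genes.

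Array control probe sets and sex-linked genes moved with the same comparison. The array's control probe sets for Gapdh had a mean interaction of -2.98. They scored -1.47 and -1.52 on the pRb+/+ arrays and from -0.03 to 0.84 on the other 6. In this they were like the genes that are low on pRb+/+ arrays alone. The beta-actin controls had a mean interaction of -2.64: scores were 1.21 and 1.41 on pRb-/-;p107+/+ but -1.0 and -1.08 where both proteins were lost. The 24 poly-A spike controls had -1.39 and the 18 hybridization controls 1.46, the latter at 2.05 on pRb+/+ replicate 2. The poly-A controls scored 0.3 and 0.19 on pRb+/+ and 1.38 and 1.13 on pRb-/-;p107+/+ arrays. They scored -0.57 and -0.55 on pRb+/+;p107-/- and -0.91 and -0.96 on pRb-/-;p107-/- arrays. Like the adipocyte markers, they were highest on pRb-/-;p107+/+ and lowest on pRb-/-;p107-/- arrays. Sex-linked genes also differed: Xist, expressed from the inactive X of females, scored -1.63 and -1.48 on the pRb-/-;p107-/- arrays and from -0.13 to 0.79 elsewhere (interaction -2.69 ± 0.37, adjusted p = 0.141), and the Y-linked genes Uty, Eif2s3y and Kdm5d had 3.27 ± 0.68, 2.31 ± 0.51 and 1.90 ± 0.57, with both other Kdm5d probe sets below 0 at -0.13 and -0.86. On the probe sets that stand for them, all 3 Y-linked genes were lowest on both pRb+/+;p107-/- arrays. The part of these controls, and of a different mix of sexes in the pools, in the genes and lists above was not tested. The correlation of duplicate arrays across probe sets was 0.173 for pRb+/+, 0.037 for pRb-/-;p107+/+, 0.35 for pRb+/+;p107-/- and 0.276 for pRb-/-;p107-/-.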

How the data were processed

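Total RNA from 30 mg of newborn FVB skin was labelled with biotin and hybridized, per the labels' protocols. RMA is named in the submitters' processing notes, without a version. The deposited score is a z-score per probe set, with mean 0 and SD 1 over the 8 arrays and no missing value. The sources used here do not say whether log or linear values were standardized, and signal over background cannot be read from it. The number of arrays limits the precision.

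Groups and replicate numbers came from the titles. The 8 arrays were fitted with limma 3.58.1 in R 4.3.3, by a linear model of the 4 genotypes that leaves 4 residual degrees of freedom. The test was not moderated, because standardization ties each probe set's variance to its differences, and the unmoderated statistic is the same on scores as on the values behind them. Benjamini-Hochberg adjustment ran over all 22626 probe sets, with a threshold of 0.05. The model was checked on simulated data. Tables and plots used Python 3.11.15 with pandas 2.3.3, scipy 1.17.1 and matplotlib 3.10.9.

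By the platform annotation 20380 probe sets had 1 gene symbol, 691 several and 1555 none, and the last 2 kinds were not named. For a gene with several, names ending in _at were preferred to _a_at, _s_at and _x_at, then the lowest number. Named are the 15 genes per direction with the smallest p among those with an interaction of at least 2, the pocket protein and E2F genes, and up to 3 members per direction of each list described. Members, 38 gene lists and tests were chosen with earlier results of these data known. Alternatives were the moderated test, quantile normalization, subtraction of array medians, the replicate number as a block, each array left out, and other ways to combine probe sets. Promoter sequences are from RefSeq (GRCm38.p6), matched by symbol for 9887 of 12393 genes.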

Additional observations from a re-analysis of the deposited data

How the results depend on the processing

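The count of 0 probe sets past an adjusted p of 0.05 was also 0 with limma's moderated test, quantile normalization, subtraction of array medians and the replicate block, where the smallest adjusted p was 0.360, 0.0751, 0.0690 and 0.1146, and 2969, 2933, 2792 and 2621 probe sets had an unadjusted p below 0.05. Same-numbered arrays did not deviate together across probe sets (correlations from -0.131 to 0.105). The titles do not say whether the numbers pair the samples. These correlations cannot decide it, because a difference shared by few probe sets would not show in them. Leaving out each array gave 0 to 1 probe set, and 0 to 1 with opposite signs of the pRb differences: Igf2r (-3.15, adjusted p = 0.0316) without pRb+/+ replicate 1, Rdh9 (adjusted p = 0.0136 and 0.0161) without pRb+/+;p107-/- replicate 1 or 2, and Fbln2 (-3.09, adjusted p = 0.043) without pRb-/-;p107-/- replicate 1. A threshold of 0.10, added after the data were seen, gave 39 above 0 and 68 below. Of these, 83 had opposite signs, which choosing by the interaction favours. Adjustment over 1 probe set per gene gave 4 (Calcb, Rdh9, Errfi1 and Eno3), and the mean of all probe sets of a gene, adjusted over genes and added after the data were seen, gave 24. These last counts have fewer tests to adjust for.

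All 30 genes with the smallest p among those with an interaction of at least 2 SD units kept their sign in every setting. Some other signs turned, and the cause was not tested. With each array left out, Rbl1 ran from -0.02 to 0.61, Rbl2 from -0.65 to 1.84, E2f4 from -0.53 to 0.61, E2f5 from -2.58 to 0.11 and Mcm5 from -0.2 to 0.34. The values across 0 came without pRb-/-;p107-/- replicate 2 for Rbl1, pRb-/-;p107+/+ replicate 1 for Rbl2 and replicate 2 for E2f5, replicate 1 of pRb+/+, pRb+/+;p107-/- and pRb-/-;p107+/+ for E2f4, and pRb+/+ replicate 2 and pRb-/-;p107-/- replicate 2 for Mcm5. E2f5 was 0.58 as the mean of probe sets. Dsp was 1.27 and Lox -0.41 as the mean of probe sets. Krtap6-5 was 0.07 after quantile normalization and 0.23 after subtraction of medians. Of 1235 values for 95 genes, 1208 kept sign and side of the threshold and 14 passed it. For 21 of 38 lists the median relative to all genes kept its sign in every setting, which holds for all those described in the text except the pocket protein and E2F genes, G1 regulators, macrophages, erythroid cells, melanocytes, sebocytes, mast cells and basal keratinocytes.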

Other observations

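Lists of immune, blood and stromal cells lay on both sides of the median of all genes, -0.44. Macrophage genes had a median interaction of -0.25 over 25 genes and erythroid genes 0.33 over 17. Interferon response genes had a median interaction of -1.18 over 26 genes, with 0 above 0 and 3 below at an unadjusted p below 0.05, against 8.06% of all genes below 0. There were 0 below after subtraction of array medians, and 0 without pRb-/-;p107-/- replicate 1. Their median score was lowest on the pRb+/+ arrays, at -0.44 and -0.81, and highest on the pRb+/+;p107-/- arrays, at 0.47 and 0.6. Lymphocyte markers had a median of -1.05 over 20 genes and smooth muscle and pericyte markers -1.05 over 15, with 0 and 3 genes below 0 at that limit. Melanocyte markers scored -1.15 and -0.62 on the pRb-/-;p107-/- arrays and sebocyte markers -1.02 and -1.09, the lowest of all genotypes in both lists. Mast cell markers had no such shape: they were -0.66 and -0.66 on pRb+/+ arrays, -0.35 and -0.5 on pRb-/-;p107+/+ arrays, 0.84 and 0.56 on pRb+/+;p107-/- arrays and 0.48 and 0.61 on pRb-/-;p107-/- arrays, and their median interaction of -0.43 was near that of all genes.

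Genes of cholesterol and fatty acid synthesis had a median interaction of -0.7 over 23 genes. At an unadjusted p below 0.05, 0 lay above 0 and 6 below, against 4.45% and 8.06% of all genes. Their median score was 1.03 and 0.57 on the pRb-/-;p107+/+ arrays and at most 0.16 elsewhere. Basal keratinocyte markers had median scores of -0.92 and 0.35 on the pRb+/+ duplicates, the widest gap between duplicates for this list.

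When all probe sets of a gene were averaged, 24 genes passed an adjusted p of 0.05 over genes, in an alternative added after the data were seen. Among them were genes with several probe sets. Ghr, the growth hormone receptor, had an interaction of -3.01 ± 0.15 (SE, mean of 3 probe sets, limma linear model, adjusted p = 0.0446) from pRb differences of 1.32 with p107 kept and -1.69 with p107 lost. Aplp2, of the amyloid precursor family, had -2.85 ± 0.17 over 5 probe sets (adjusted p = 0.0472), and Fscn1, an actin-bundling protein gene, -1.96 ± 0.09 over 4 (adjusted p = 0.0401). Ndrg1, a stress-responsive gene, had 1.86 ± 0.10 over 5 probe sets (adjusted p = 0.0457), and Btc, the EGF receptor ligand betacellulin, 1.05 ± 0.06 over 2 (adjusted p = 0.0457). For Atp5a1, of the mitochondrial ATP synthase, the interaction went from -0.22 for the probe set that stands for the gene to -1.19 for the mean of 3, and for Fscn1 from -3.16 to -1.96.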
